A study of Mus musculus with 2 samples.

Results

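Myc and Myb are transcription factor genes of dividing blood cells whose control regions lie far from the genes themselves, and their loci were described here by the DNase-seq peaks and footprints of mouse thymus. The enzyme DNase I cuts exposed DNA of isolated nuclei, and sequencing places the cuts: a peak is a stretch cut more than its surroundings, and a footprint is a short run of bases inside it that was cut less. For Myc, on chromosome 15, the window ran from 100 kb upstream to 2 Mb downstream of the gene (chr15:61885391-63990374, mm10). For Myb, on chromosome 10, it took the gene and 150 kb on each side (chr10:20974935-21310984). Peaks of the libraries that overlapped by at least 1 bp were joined into a peak region, and a region holding a peak of each library is called shared. The windows held 239 of the 139912 regions in the genome, 126 around Myc and 113 around Myb.

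Both libraries came from thymus of 10-day-old B6CASTF1/J females, a cross of C57BL/6J and CAST/EiJ mice, with no treatment named in the labels. They are biological replicates 1 and 2 of a single group, from separately numbered females with a shared donor identifier. With 1 group, no treated or control samples and 2 libraries, no p-value was computed, and counts over the genome stand beside those of the loci as a description. The thymus is a mixture of cells, and in such bulk tissue a region open in few cells and a region cut less in every cell cannot be told apart.

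Replicate 1 had 132737 peaks and replicate 2 had 69798, with median heights of 0.625 and 0.829 in the authors' units. Height is therefore also given as a multiple of the library's median. The number of sequenced reads was not given, so the depth is unknown. Promoters, taken as 500 bp on each side of the annotated start, had a peak in both libraries at 10 of 10 thymocyte marker genes, against 51.8% of 21938 protein-coding genes. This was so for 0 of 3 B cell markers, 0 of 3 erythroid markers and 2 of 3 myeloid markers. It was so for 1 of 3 markers of thymic epithelium, 1 of 2 of endothelium, 0 of 2 of fibroblasts and 0 of 2 of hepatocytes. What myeloid, epithelial or endothelial cells added to the values at Myc and Myb was not tested.

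The Myc protein binds E-box sequences as a dimer with Max and drives growth and division. In developing T cells it acts downstream of Notch and of the pre-T cell receptor. The gene stands at the edge of a long stretch poor in protein-coding genes, with the non-coding RNA gene Pvt1 next to it and the gasdermin C genes (Gsdmc) at its far end. A cluster of blood cell enhancers is known in mouse over 1 Mb downstream of Myc. The Myb protein works with the coactivators Crebbp and Ep300 and is needed for thymocytes to pass from the CD4-CD8- to the CD4+CD8+ stage. In mouse erythroid cells, enhancers of Myb lie in the interval between Myb and its upstream neighbour Hbs1l.

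The sequences of the regions that the results turn on are given first, each as the plus strand of mm10 unless said otherwise. Each is the whole region, or its central 240 bases where the region is longer than 300. Capitals mark bases inside a footprint that both libraries had, and the rest is in lower case. For Myc these are the highest region upstream, the highest in Pvt1, and 3 regions over 1 Mb away.
Myc, 1.92 kb upstream, chr15:61983381-61983560: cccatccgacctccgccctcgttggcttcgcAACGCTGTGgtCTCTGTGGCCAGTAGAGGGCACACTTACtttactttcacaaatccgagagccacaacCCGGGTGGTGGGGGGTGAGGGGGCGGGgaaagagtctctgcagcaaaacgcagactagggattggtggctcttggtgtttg
Myc, 184 kb downstream in Pvt1, chr15:62169601-62169840: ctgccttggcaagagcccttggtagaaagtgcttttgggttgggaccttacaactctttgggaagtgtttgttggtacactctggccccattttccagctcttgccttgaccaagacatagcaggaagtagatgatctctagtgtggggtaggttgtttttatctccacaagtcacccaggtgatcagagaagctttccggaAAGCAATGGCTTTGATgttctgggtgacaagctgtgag
Myc, 1.48 Mb downstream, chr15:63466961-63467260: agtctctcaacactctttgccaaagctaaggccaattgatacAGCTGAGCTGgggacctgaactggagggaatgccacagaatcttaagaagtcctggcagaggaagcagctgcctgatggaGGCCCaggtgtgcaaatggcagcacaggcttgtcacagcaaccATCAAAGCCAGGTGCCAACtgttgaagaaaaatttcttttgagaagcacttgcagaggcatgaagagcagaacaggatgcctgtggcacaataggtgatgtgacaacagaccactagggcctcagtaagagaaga
Myc, 1.67 Mb downstream, chr15:63652621-63652840: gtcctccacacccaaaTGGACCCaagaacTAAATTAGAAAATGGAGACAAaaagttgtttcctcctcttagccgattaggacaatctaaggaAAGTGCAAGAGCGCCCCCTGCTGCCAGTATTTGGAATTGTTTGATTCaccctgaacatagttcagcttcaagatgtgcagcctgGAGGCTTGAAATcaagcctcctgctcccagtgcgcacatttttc
Myc, 1.79 Mb downstream, chr15:63771681-63771840: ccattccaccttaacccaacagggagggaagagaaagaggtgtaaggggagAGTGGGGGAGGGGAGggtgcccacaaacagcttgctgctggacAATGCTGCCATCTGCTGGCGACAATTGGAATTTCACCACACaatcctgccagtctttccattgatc
In the region 1.67 Mb downstream, 39.5% of these bases lay in footprints of both libraries, and in that 1.92 kb upstream 35.6% did.

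For Myb the sequences are those of the highest region, by mean height over the median, in the interval to Hbs1l apart from the Hbs1l promoter, the highest region downstream by the same measure, the region of largest height in replicate 1 and the promoter. The promoter is from RefSeq (GRCm38.p6), 250 bases before to 50 after the start, read along the gene.
Myb, 91.3 kb upstream, chr10:21252201-21252440: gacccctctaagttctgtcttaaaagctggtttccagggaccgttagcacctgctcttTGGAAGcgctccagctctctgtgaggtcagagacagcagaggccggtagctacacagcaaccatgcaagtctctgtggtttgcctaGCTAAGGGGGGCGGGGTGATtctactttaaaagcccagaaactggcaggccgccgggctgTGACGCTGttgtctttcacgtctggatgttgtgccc
Myb, 68.3 kb downstream, chr10:21092591-21092830: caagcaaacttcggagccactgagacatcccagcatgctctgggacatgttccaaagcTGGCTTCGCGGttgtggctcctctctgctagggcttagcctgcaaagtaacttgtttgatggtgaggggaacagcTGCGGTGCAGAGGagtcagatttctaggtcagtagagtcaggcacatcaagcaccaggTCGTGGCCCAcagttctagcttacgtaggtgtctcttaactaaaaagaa
Myb, 168 kb downstream in Ahi1, chr10:20992761-20992940: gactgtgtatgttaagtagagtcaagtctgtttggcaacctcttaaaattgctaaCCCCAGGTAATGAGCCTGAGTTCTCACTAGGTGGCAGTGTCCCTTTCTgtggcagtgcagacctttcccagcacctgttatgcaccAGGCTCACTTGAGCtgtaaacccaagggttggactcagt
Myb promoter, chr10:21160935-21161234, minus strand: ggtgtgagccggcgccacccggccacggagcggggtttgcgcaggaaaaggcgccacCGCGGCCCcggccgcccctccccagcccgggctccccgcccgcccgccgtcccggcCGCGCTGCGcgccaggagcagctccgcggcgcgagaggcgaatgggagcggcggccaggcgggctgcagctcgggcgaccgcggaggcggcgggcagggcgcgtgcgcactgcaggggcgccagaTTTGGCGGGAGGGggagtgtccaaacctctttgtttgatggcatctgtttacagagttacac
The Myb promoter held 40 CpG and 75% G and C, against a median of 52.7% over 27025 RefSeq promoters. Its shared footprints covered 10% of its bases. GGGCGG, the core that Sp factors bind, was found 3 times in it on either strand, and 35.9% of all promoters held it at least once. None of the 12 other motifs named further on was found, in the letters given there, in these 300 bases. Near matches were not counted. The last run of capitals in the promoter, a footprint of both libraries, holds the E2F core named further on except for its last base. The absence of that core thus does not show that the promoter lacks related sequences.

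Around Myc, 42 of 126 regions were shared (33.3%, Wilson 95% interval 25.7 to 41.9%), against 39.3% of regions over the genome. Another 76 were seen in replicate 1 alone, against 52.4% of regions over the genome. In replicate 2 alone 8 were seen, against 11551 of 139912 regions over the genome. Around Myb, 31 of 113 regions were shared (27.4%, 20.1 to 36.3%), with 61 in replicate 1 alone and 21 in replicate 2 alone. These intervals cover counting error only. Among distal regions, more than 1 kb away from the transcription starts of protein-coding genes, 37 of 121 were shared around Myc and 25 of 103 around Myb, against 33.1% over the genome.

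The loci differed in how dense their open regions were. The Myc window held 17.6 shared distal regions per Mb, the Myb window 74.4 and the genome 12.7. Windows were then drawn in the same way around every protein-coding gene. The Myc window held 37 shared distal regions, against a median of 39 over 21691 genes (quartiles 18 and 65), and 47.3% of genes had fewer. The Myb window held 25, against a median of 7 over 21925 genes (quartiles 2 and 12), and 96.6% of genes had fewer. In all regions, shared or not, Myb had 113 against a median of 31, and 99.6% of genes had fewer. Neighbouring genes share much of their windows, so these genes are not independent.

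**Figure D1:**
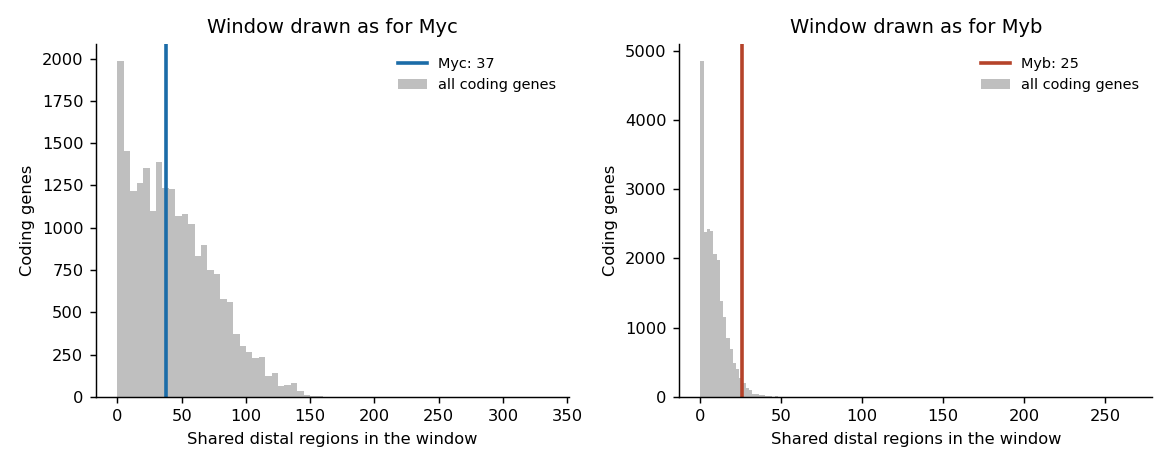
Number of shared distal regions (x axis) in windows drawn as for Myc (left) and as for Myb (right), with the number of protein-coding genes at each count (y axis, grey bars). The coloured lines mark Myc, at 37, inside the bulk of genes, and Myb, at 25, in the upper tail.

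At Myc itself the highest region was not at the start. The region 1.92 kb upstream (chr15:61983381-61983560, in no annotated gene) had heights of 5.85 in replicate 1 and 3.75 in replicate 2, 9.36 and 4.52 times the median. It was the highest shared region of the window in either library. Its height passed those of 97.2% of the shared distal regions of the genome in replicate 1 and 95.8% in replicate 2. Of its 5 footprints in replicate 1 and 3 in replicate 2, 3 of replicate 1 were overlapped. TGTGGT, the core that Runx factors bind, lay at a footprint of both libraries, that is within 5 bp of one. So did a match to GGGCGG, the Sp core.

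The Myc promoter region (chr15:61984701-61985760) spread over the annotated start. Its heights were 3.13 in replicate 1 and 1.56 in replicate 2, or 5.01 and 1.88 times the median (mean 3.45 ± 2.21, SD, n = 2). The libraries differed here by 2.01 times in height as deposited. How far apart they stood depended on the scale, as given at the end. Among genes with a promoter peak, 39.6% were lower than Myc in replicate 1 and 23.7% in replicate 2, so that the Myc promoter stood below the middle of promoters in both. GCGGGAA, an E2F core, lay at a footprint of both libraries there. A lower shared region was centred 1.00 kb upstream (heights 1.05 and 0.898), and the gene body held 3 more, with 0.834 and 0.655, 1.58 and 0.985, and 0.973 and 0.956. The last of these was centred in an annotated exon of Myc and the others in its introns.

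Pvt1 begins downstream of Myc on the same strand, and its promoter peak was low, with heights of 0.909 in replicate 1 and 0.545 in replicate 2. Its body held 25 regions, of which 8 were shared. The highest, 184 kb from the Myc start in an intron (chr15:62169521-62169920), had heights of 4.22 and 1.98. It passed 92.6% and 85.8% of the shared distal regions of the genome. CTTTGAT, the core that Tcf and Lef factors bind, lay at a footprint of both libraries there. The intronic region 108 kb from the start (chr15:62092701-62093140) had heights of 2.48 and 1.69. The bin from 100 to 200 kb held 6 shared regions, more than any other 100 kb bin of the window.

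Beyond Pvt1 the regions were spread unevenly over the desert. From the end of Pvt1 to 1 Mb, 27 regions were found and 7 were shared. The highest of them, 472 kb from the start (chr15:62457201-62457420), had heights of 2.21 and 1.25 and lay in no annotated gene. The bin from 600 to 700 kb held no region, and those from 1 to 1.2 Mb held 10 regions, none of them shared. All 10 were seen in replicate 1 alone.

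**Figure D2:**
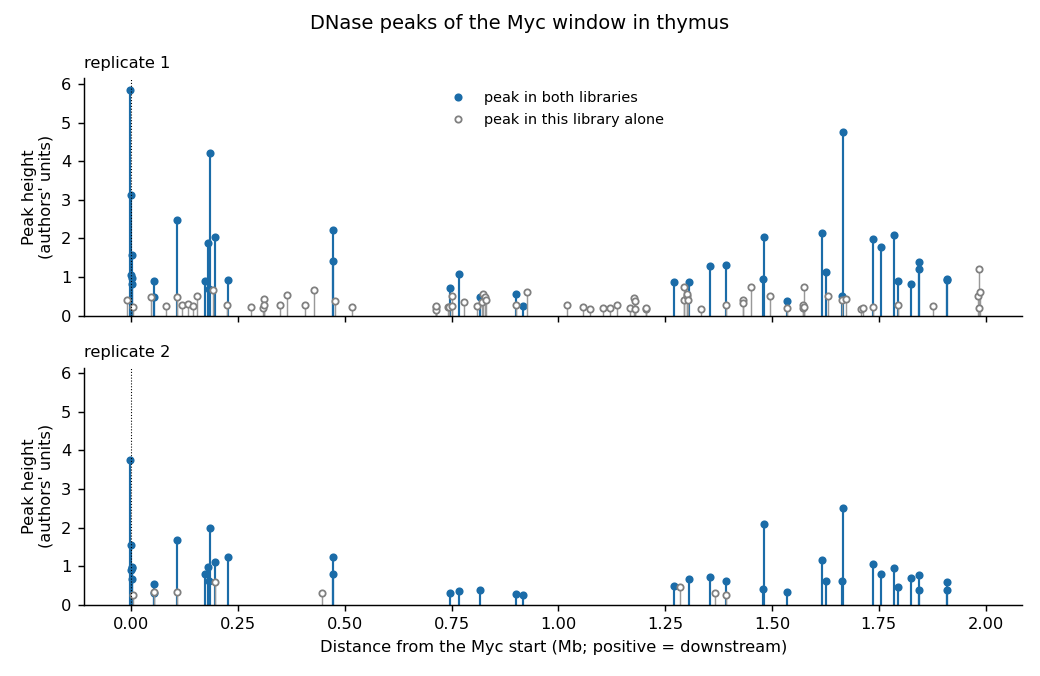
Peak height in the authors' units (y axis) against distance of the region from the Myc start in Mb (x axis), replicate 1 above and replicate 2 below. Filled points are shared regions and open points regions of the one library. Shared regions ran from 1.92 kb upstream to 1.91 Mb downstream, with none between 1 and 1.2 Mb. The tallest lay 1.92 kb upstream, in Pvt1 and at 1.67 Mb.

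Over 1 Mb from the start lay 20 of the 42 shared regions (47.6%, Wilson 95% interval 33.4 to 62.3%), on 47.7% of the length of the window. Their density there was 19.9 per Mb, against 20 over the whole window and 20.2 over the genome, where regions near promoters count too. All 20 were distal. Shared distal regions alone had a density of 17.6 per Mb over the window and 12.7 over the genome, below that of the far stretch. Of the 20, 14 lay over 1.5 Mb away. With peaks at or above the library's median height alone, the share over 1 Mb was 31.2%. In replicate 1 the far shared regions had heights of 0.593 to 7.59 times the median (middle value 1.86). In replicate 2 they had 0.406 to 3.02 times (middle value 0.78). These middle values lay below the medians of shared distal regions over the genome, 2.32 in replicate 1 and 0.965 in replicate 2. A few far regions stood out.

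The highest far region lay 1.67 Mb from the start (chr15:63652621-63652840) in an intron of the predicted gene Gm41335. Its heights were 4.75 in replicate 1 and 2.50 in replicate 2, 7.59 and 3.02 times the median. It ranked after the region 1.92 kb upstream among the shared regions of the window by mean height over the median, and passed 94.7% and 90.7% of the shared distal regions of the genome. All 3 of its footprints in replicate 1 were overlapped by footprints of replicate 2, which had 4.

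The region 1.48 Mb from the start (chr15:63466961-63467260) had heights of 2.04 in replicate 1 and 2.08 in replicate 2. It was 1 of 4 shared regions of the window that were not higher in replicate 1. At its shared footprints lay CAGCTG and also CAGGTG, E-boxes of the kind that thymocyte E proteins bind. A Tcf core and AACTG, the core that Myb proteins bind, lay there too. CAGCTG reads the same on both strands.

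The other 100 kb bins past 1.2 Mb are given by their highest shared region. That at 1.27 Mb, the only shared region of its bin, had heights of 0.88 in replicate 1 and 0.481 in replicate 2. It passed 25% and 19.1% of the shared distal regions of the genome. That at 1.36 Mb had heights of 1.29 in replicate 1 and 0.707 in replicate 2, and that at 1.53 Mb, the lowest of the bins, 0.371 and 0.336. The region at 1.62 Mb, the second in its bin and the eighth in the window, had 2.13 and 1.16. In the next bin, the region at 1.79 Mb had 2.10 and 0.95 and lay between genes. The far regions thus reached their largest heights between 1.48 and 1.79 Mb.

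Inside the Gsdmc genes the regions were lower. The region at 1.84 Mb, in an intron of Gsdmc2, had heights of 1.39 in replicate 1 and 0.759 in replicate 2. That at 1.91 Mb, in an intron of Gsdmc4, had 0.95 and 0.597. None of Gsdmc, Gsdmc2, Gsdmc3 and Gsdmc4, which encode pore-forming proteins of epithelia, had a promoter peak in either library. Fam49b, which reaches into the end of the window, has its start beyond it and had a promoter peak in both, with heights of 1.77 and 1.73.

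A pattern in the letters was noticed after the sequences were seen. A long consensus of the insulator protein Ctcf was found in 7 of the 20 shared regions over 1 Mb from Myc (35%), and in each of them the match touched a footprint of both libraries. These were the regions at 1.53, 1.62, 1.67, 1.74, 1.79, 1.84 and 1.91 Mb. The region 1.92 kb upstream of Myc also held it, in a footprint of both libraries. In the central 200 bp it was in 9 of 37 shared distal regions around Myc (24.3%), in 5 of 25 around Myb (20%) and in 29.7% of those of the genome. The share at the loci was thus not above that of the genome, and the count over 1 Mb was chosen after it was seen. A match is a description and not a site.

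**Figure D3:**
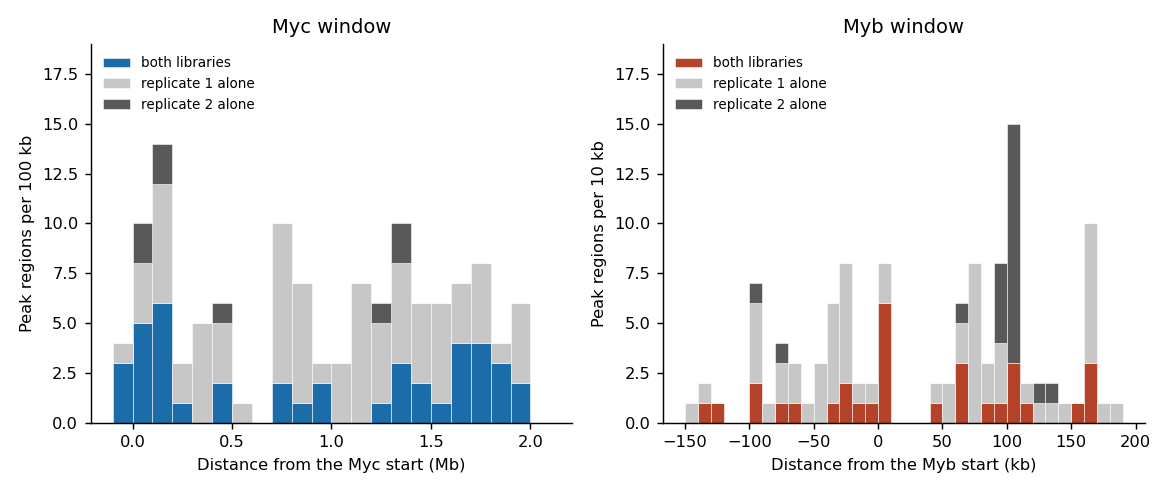
Peak regions (y axis) per 100 kb from the Myc start (left) and per 10 kb from the Myb start (right), with distance on the x axes. Colour marks shared regions, light grey those of replicate 1 alone and dark grey those of replicate 2 alone; at Myb the bin from 100 to 110 kb held 15 regions, of which 3 were shared.

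At Myb the start was open in both libraries alike. The promoter region (chr10:21160781-21161140), which holds the annotated start and is centred in the first exon, had heights of 3.94 in replicate 1 and 3.93 in replicate 2. These were 6.31 and 4.74 times the median (mean 5.52 ± 1.11, SD, n = 2). Of genes with a promoter peak, 46.7% were lower in replicate 1 and 48.6% in replicate 2, so that Myb stood near the middle of promoters. A further shared region touched it on the upstream side, with heights of 3.25 and 3.04.

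The first part of the Myb gene held a run of open regions. Within 5 kb of the start, 5 shared regions followed the promoter region in introns. The highest of them were centred 2.73 kb from the start (chr10:21158141-21158360), with heights of 3.57 in replicate 1 and 2.15 in replicate 2, and 1.96 kb from it (chr10:21158701-21159340), with 3.28 and 2.81. The others, at 0.943, 2.44 and 3.81 kb, had 1.71 and 1.43, 2.05 and 1.15, and 0.689 and 0.516. The gene held 6 shared regions in all, and none was centred more than 10 kb from the start inside the gene.

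Upstream of Myb, 11 shared regions were found, 10 of them before Hbs1l. By mean height over the median the highest was the Hbs1l promoter, 135 kb upstream (chr10:21295901-21296080), with heights of 4.90 in replicate 1 and 6.36 in replicate 2. Hbs1l encodes a factor that rescues stalled ribosomes. The region 91.3 kb upstream (chr10:21252201-21252440), in no annotated gene, had 5.15 and 4.68. The region 74.5 kb upstream (chr10:21235241-21235700), in an intron of the predicted gene Gm33728, had 5.36 and 4.35. In replicate 1 both were higher than the Hbs1l promoter, as was the region 25.9 kb upstream. Both passed more than 95% of the shared distal regions of the genome in either library, with 95.8% and 97.5% at 91.3 kb and 96.3% and 97% at 74.5 kb.

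Nearer to Myb, 4 of the 5 shared regions between 15 and 62 kb upstream were lower in replicate 2. This was close to the 83.9% of shared regions in the window and 80.5% over the genome that were higher in replicate 1. The region 25.9 kb upstream had heights of 4.99 in replicate 1 and 2.42 in replicate 2, and that 28.2 kb upstream 4.09 and 1.34, a ratio of 3.05. The region 35.8 kb upstream had 2.90 and 1.99, and that 61.9 kb upstream 2.80 and 1.32. The exception, 18.0 kb upstream, had 0.62 and 0.742. From 15 to 45 kb upstream lay 19 regions, of which 4 were shared and 15 were in replicate 1 alone. Those 15 had heights of 0.365 to 1.82 (median 0.932). From 55 to 100 kb upstream, 10 of 16 regions were in replicate 1 alone, with a median height of 0.918. Over the whole window 61 of 113 were, and over the genome 52.4%.

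Downstream of Myb, adjoining regions at 68.3 kb (chr10:21092541-21092880) and 67.9 kb (chr10:21092881-21093280) were the highest of the window by mean height over the median. The first had heights of 5.44 in replicate 1 and 5.98 in replicate 2, and the second 6.01 and 5.05. They touched without overlapping and lay between Myb and Ahi1 in no annotated gene. In the first, AACTG and also CAGCTG lay at footprints of both libraries, and in the second the Tcf core did. The region at 60.1 kb (chr10:21100721-21101000), in an exon of the predicted non-coding gene Gm48189, had 3.86 and 4.85. It was 1 of 5 shared regions of the window that were higher in replicate 2.

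Ahi1, a gene of the primary cilium, filled the far side of the window and runs towards Myb from the opposite strand. It held 46 regions, 10 of them shared. The region at 168 kb (chr10:20992761-20992940), in an intron, had the largest height of the window in replicate 1, 6.88, and 2.55 in replicate 2, a ratio of 2.69. Its lowest FDR, the false discovery rate of the cut rate as deposited, was 3.9e-247 in replicate 1 and 9.8e-13 in replicate 2. A match to CTAGGTGGC, a Ctcf core, lay at a footprint of both libraries. At 83.7 kb, near the end of Ahi1, a wide region (chr10:21076801-21077820) had heights of 3.86 and 2.98.

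Replicate 2 had a run of low peaks in Ahi1. Between 98.1 and 110 kb from the Myb start lay 16 of its 21 own regions, with heights of 0.0985 to 0.533 (median 0.223), beside 3 shared ones. Replicate 1 had no region of its own there. Without that stretch, chosen after the heights were seen, 28 of 94 regions were shared (29.8%). What produced the run was not tested.

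**Figure D4:**
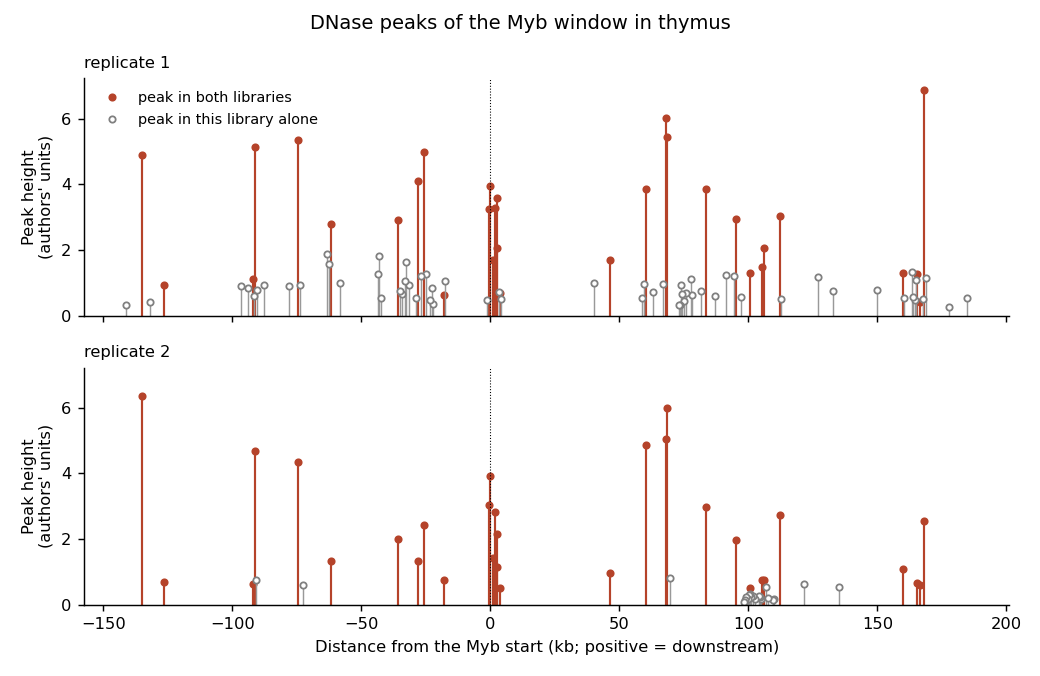
Peak height in the authors' units (y axis) against distance of the region from the Myb start in kb (x axis), replicate 1 above and replicate 2 below. Filled points are shared regions and open points regions of the one library; the tall shared regions lay on both sides of the gene, and the low open points of replicate 2 crowded between 98.1 and 110 kb.

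Set side by side, the shared distal regions of Myb were taller than those of Myc. Their median height over the library's median was 4.72 in replicate 1 and 2.37 in replicate 2 around Myb. It was 1.74 and 0.811 around Myc, and 2.32 and 0.965 over the genome. Both libraries gave the same order, Myb above the genome and Myc below it. The medians of the libraries differed from each other by more than those of Myc differed from those of the genome, and no test was run.

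Replicate 1 was the higher one at most shared regions, in 38 of 42 around Myc (90.5%) and 26 of 31 around Myb (83.9%), against 80.5% over the genome. The median ratio of height in replicate 1 to that in replicate 2 was 1.79 around Myc, 1.34 around Myb and 1.43 over the genome. Across regions the log2 heights of the libraries had a Pearson r of 0.871 over the 42 regions of Myc and 0.874 over the 31 of Myb, against 0.902 over the genome. Spearman's rho was 0.82, 0.884 and 0.897. The points of each correlation share the libraries and their depth.

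**Figure D5:**
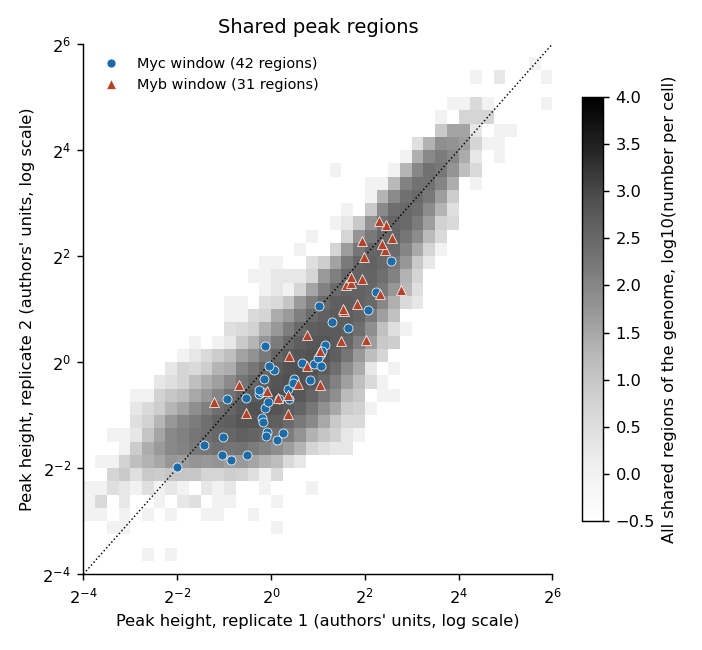
Height of each shared region in replicate 1 (x axis) and replicate 2 (y axis), in the authors' units on log scales, for Myc (circles) and Myb (triangles), with the number of shared regions of the genome in grey. The dotted line marks equal heights; 38 of 42 Myc regions and 26 of 31 Myb regions lay below it.

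Regions of replicate 1 alone had a median height of 0.759 around Myb and 0.284 around Myc, against 0.359 over the genome. Those of replicate 2 alone had 0.243 around Myb and 0.316 around Myc, against 0.411. The regions of replicate 1 alone were thus higher at Myb than at Myc, and the median of those of replicate 2 alone was lower. Of the 21 regions of replicate 2 alone around Myb, 16 lay in the low run in Ahi1 (median 0.223). The rest had heights of 0.533, 0.603, 0.643, 0.765 and 0.828, each above the median of 0.316 around Myc. The highest of replicate 1 alone was 1.88, at 63.5 kb upstream of Myb, and 1.22, at 1.98 Mb from Myc in Fam49b. With the same number of peaks taken from each library, the 69798 highest, 30 of 94 regions around Myb were shared (31.9%) and 36 of 58 around Myc (62.1%), against 58.5% over the genome. The share at Myc thus came to that of the genome, and the share at Myb did not. Replicate 2 kept all its peaks in this step. Around Myb, 42 regions were then in replicate 1 alone and 22 in replicate 2 alone, the latter with the 16 of the low run in Ahi1.

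The FDR of the other library was checked at these regions. Of the regions of replicate 1 alone, 2 of 76 around Myc and 1 of 61 around Myb overlapped bases with an FDR under 0.05 in replicate 2, against 5.46% over the genome. Of the regions of replicate 2 alone, 3 of 8 around Myc and 4 of 21 around Myb overlapped such bases in replicate 1, against 49.2%. Most regions of a single library at the loci were thus not marked in the other, which at an unknown depth does not show that they were closed there. The highest regions of replicate 2 alone were 0.591, at 197 kb from Myc in Pvt1, and 0.828, at 69.4 kb from Myb.

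The footprints of the libraries overlapped in part. Around Myc, replicate 1 had 265 footprints, of which 55 (20.8%) were overlapped by one of replicate 2, against 33.5% over the genome. Around Myb it had 349, of which 67 (19.2%) were overlapped. Replicate 2 had 127 around Myc, 59 of them overlapped (46.5%), and 140 around Myb, 70 of them overlapped (50%), against 61.8% over the genome. The shares at both loci lay below those of the genome in either library. No correction of the footprints for the sequence preference of DNase I is stated in the labels or the README.

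Over both loci, 62 shared distal regions were searched in their central 200 bp for 13 short motifs on both strands. CAGGTG was in 26 of them (41.9%, Wilson 95% interval 30.5 to 54.3%), against 29.3% of 34704 shared distal regions of the genome, with 13 of 25 at Myb and 13 of 37 at Myc. CNGGAAG, an Ets core, was in 35.5%, against 28.2%, and AACTG in 45.2%, against 40.8%. CTTTGAT was in 8.06% (3.49 to 17.5%), against 3.72%. The genome's share of CAGGTG lay just below the interval at the loci, and those of the other 3 within it.

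The rest were close to the genome or below it. TGTGGT was in 16.1% of the regions, against 21.9%, and CAGCTG in 16.1%, against 20.9%. AGATAA, which GATA factors bind, was in 8.06%, against 7.34%, and GTGGGAA, the core bound by the Notch partner Rbpj, in 6.45%, against 4.71%. CCAAT, the NF-Y core, was in 16.1%, against 18.9%, and TTCNNNGAA, the Stat core, in 6.45%, against 5.57%. GGGCGG was in 8.06%, against 11.7%, and CNAGGNGGC, a short Ctcf core, in 8.06%, against 11.9%. GCGGGAA was in 0 of 62, which allows a share of up to 5.83% (Wilson upper bound), against 1.35%. GTGGGAA and GCGGGAA share the letters GGGAA, and CNGGAAG can overlap both, so that a stretch of bases can count for more than 1 motif.

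Most of the listed genes of the Myc network had open promoters in this tissue. Of the 12 genes of the Myc network, 11 had a promoter peak in both libraries, beside the 51.8% of all protein-coding genes. Max, the obligate partner, had heights of 9.85 in replicate 1 and 8.80 in replicate 2. By mean height over the median the highest was Mxd1, which competes with Myc for Max, with 11.3 and 21.5, while in replicate 1 Mxd4, of the same family, was higher with 12.5, against 14.4 in replicate 2. Mxi1, another such competitor, was the lowest with 1.54 and 1.05. Mlxipl, a glucose-sensing relative best known from liver, had no promoter peak in either library.

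The related genes Mycn and Mycl had promoter peaks as well. Mycn had heights of 1.81 in replicate 1 and 1.75 in replicate 2, and Mycl 4.90 and 2.99. Myc itself, with 3.13 and 1.56, stood between them in replicate 1 and just below Mycn in replicate 2. Of the Myb family and its coactivators, 4 of 4 had a promoter peak in both libraries. Mybl2, a cell cycle relative, had 7.3 and 7, and Mybl1 had 3.69 and 4.47, on either side of Myb in replicate 1 and both above it in replicate 2. Ep300 had 7.12 and 11.7, and Crebbp 4.09 and 4.37.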

How the data were processed

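Open chromatin was measured by DNase-seq in thymus of 2 mice, which form 1 group. Per the labels and the README deposited with each sample, files are on mm10 and were made per library. Of the pair of peak files per library the one with more rows was used, as in the rule for the loci, and the other, with 93790 and 46467 peaks, served as an alternative. The signal that the authors deposited is a height per peak. Its scaling is not given in the sources used here, nor are the aligner, the callers or the read depth. The authors deposited FDR values (a q-value) per stretch of bases, and the footprint list carries the constant 0.01.

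Peaks of the libraries that overlapped by 1 bp or more were joined, a region was placed by its midpoint, and distance was taken from the annotated gene start (GENCODE M21, GRCm38.p6). Chromosome lengths were compared with the peak ends. A library's own overlapping peaks were joined too, and the highest gave the height. A footprint was shared where it overlapped one of the other library by 1 bp, and a motif counted as lying at a shared footprint within 5 bp of it. Python 3.11.15, numpy 2.4.6, scipy 1.17.1 and matplotlib 3.10.9 were used, and joining and motif search were tested on simulated data. Coordinates are 1-based.

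The members, gene lists and motifs were chosen with earlier results of these data known. Regions named are the 8 highest shared ones per window, the highest shared one in each 100 kb bin past 1 Mb of Myc, the highest upstream, inside and downstream of Myb, the promoters and the highest of each library alone. Regions named for other reasons were chosen after their values were seen: that at 83.7 kb, those in introns of Myc and Myb, those within 62 kb upstream of Myb, and those with the long Ctcf consensus. The alternatives were the smaller peak file, other overlaps, equal peak numbers, higher peaks, joined peaks, another promoter window or scale and each library alone.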

Additional observations from a re-analysis of the deposited data

How the results depend on the processing

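Of 101 alternative values for 24 results, 83 stayed within 1.5 times of a count, within the interval of a share or within 1 SD of a height. The 83 include the promoter heights of each library alone. With n = 2 these always lie within 1 SD of their mean, so they do not show stability. Heights as deposited were set against multiples of the median, which is another scale. With peaks at or above the median height alone, 16 shared regions were left around Myc and 31.2% of them lay over 1 Mb away. With equal numbers of highest peaks, 62.1% of Myc regions were shared. The mean Myb promoter height was 3.55 times the median in the smaller peak file, 3.8 times that of equal numbers of highest peaks and 3.94 as deposited. For Myc the same values were 2.22 ± 1.42, 2.07 ± 0.27 and 2.35 ± 1.11 (SD, n = 2), against 3.45 ± 2.21 in the main setting. Over whole regions CAGCTG was in 29% and CCAAT in 27.4%, and the long Ctcf consensus, added after the data were seen, was in 22.6%. The cause was not tested.

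With 1 library alone, where all its own regions count, the Myc window held 52 to 119 regions and 44.2 to 50.4% over 1 Mb, and the Myb window 55 to 92, with 14 to 39 upstream. The fullest Myc bin then held 9 to 12. Promoter heights were 1.88 to 5.01 at Myc and 4.74 to 6.31 at Myb, and footprints 127 to 265 and 140 to 349. No paired analysis was possible because there is 1 group.

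The depth of both libraries is unknown, so that absence of a peak does not show a closed region. The hybrid mice carry 1 CAST/EiJ set of chromosomes, and how well its reads were placed on mm10 was not measured here.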
